A study of Mus musculus with 18 samples.

Results

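The 43 genes described here encode proteins of the extracellular matrix, the enzymes and inhibitors that shape it, and proteins that mark hepatic stellate cells, pericytes and their contractile state. They were picked by name for these roles. Each gene was read from 1 probe set, the one with the highest mean over the 18 arrays among the probe sets that the platform annotation assigns to that symbol alone. A probe set was found for 42 of the 43 names, out of 18193 genes with such a probe set in the series, and Fbn1 (fibrillin 1) was the name without one. Of the 42, 39 passed a filter on low mean signal and were tested, out of 12896 genes with a tested probe set. The collagen crosslinker Lox, the protease inhibitor Timp1 and the surface antigen Thy1 fell below the filter, and their signals were between 0.819 and 33.2 on every array.

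The RNA came from livers of male mice of 2 genotypes, wild type (Hmgn1+/+) and knockout (Hmgn1-/-); Hmgn1 encodes a nucleosome-binding protein. Both genotypes descend from matings of Hmgn1+/- parents, after which each homozygous line was bred on its own, so that the targeted allele cannot be told apart from anything else that came to differ between the lines. Each genotype gave 3 arrays from uninjected livers at 4 weeks, 3 after a saline injection and 3 after N-nitrosodiethylamine (DEN), a carcinogen activated by liver enzymes, at a dose of 10 µg/g when the animals were 4 weeks old. The injected groups carry the label 12 weeks, and the sources do not settle whether this counts from birth or from the injection. A comparison of an injected with an uninjected group therefore changes age and injection together. Nothing in the labels says that the 3 arrays of a group are 3 animals, so the p-values speak only of the spread among these arrays, which may be technical.

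Hepatic stellate cells are the vitamin A-storing pericytes of the liver sinusoid. When they are activated in injured liver they lose their retinoid stores, gain contractile filaments such as smooth muscle actin, and become the main source of fibrillar collagen in fibrosis. The matrix they lay down is built of fibrillar collagens, decorated by small leucine-rich proteoglycans such as decorin, crosslinked by lysyl oxidases, and turned over by metalloproteinases whose activity the TIMP proteins restrain.

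Values are Affymetrix MAS5 signals, scaled by the authors to 1 common trimmed mean. Every difference given here is on the log2(signal + 16) scale, which understates the change of dim probe sets, and has its standard error (SE) beside it. Adjusted p-values are those of limma with Benjamini-Hochberg adjustment over all 27022 tested probe sets, and "rose" and "fell" stand for an adjusted p under 0.05. The 6 saline arrays stood apart: their signals topped out at 16720 to 21752, those of the other 12 arrays at 46967 to 60173, and their BioB hybridisation control was 5.35 to 5.72 on the log2 scale against 8.21 to 9.02. Saline treatment and this difference in signal between the arrays, whose source is not known here, cannot be told apart. Quantile-normalised results are therefore given beside the calls, the sign counts and most of the leading values of comparisons with saline. The 3'/5' ratio of Gapdh, a sign of RNA integrity, ran from 0.907 to 2.19, with its maximum on wild-type replicate 2 of the uninjected livers. The same ratio of the actin gene Actb was highest on that array too. It was 3.44 to 7.28 at 4 weeks and 2.72 to 3.50 in the injected groups. The probe set of the targeted gene did not mark the genotype: Hmgn1 signal at 4 weeks was 6083 to 7948 in wild type and 6503 to 6864 in knockout (log2 difference -0.04, limma adjusted p 0.898). Neither the deleted part of Hmgn1 nor the place of the probes is given in the sources used here, so this does not test the labels. All 10 hepatocyte genes measured were above the filter, as were 23 of 25 further stellate cell genes. The filter passes a fixed share of all probe sets and is not a detection call. Passing it therefore does not show that RNA of a cell type was detected. In bulk tissue, fewer cells of a type and less RNA per cell cannot be told apart.

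Across the 6 groups, uninjected wild-type livers at 4 weeks held the highest mean for 18 of the 39 tested members, against 14.8% of all tested probe sets. Uninjected knockout livers at 4 weeks held the lowest mean for 20 of 39, against 18.1% of all tested probe sets. The range between group means was modest for most members. It was under 1.5-fold for 17 members and over 2-fold for 11, with a median of 1.55. The arrays of a group did not agree equally well for all genes: the within-group SD of log2 values had a median of 0.30 over the tested members and 0.23 over all tested probe sets. The smooth muscle light chain gene Myl9 varied most (0.70), followed by the actin-binding protein gene Tagln (0.62) and the collagen gene Col1a2 (0.61). The secreted matrix protein gene Ecm1 (0.11), the retinoid-esterifying enzyme gene Lrat (0.12) and the decorin gene Dcn (0.12) varied least.

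Single arrays also carried the set up or down together. Wild-type replicate 2 at 4 weeks was the highest of its 3 arrays for 26 of 39 members, against 42.4% of all tested probe sets. Knockout replicate 2 after saline was the highest of its group for 28 members (30.1% of all), knockout replicate 1 after DEN for 27 (30.7% of all), and wild-type replicate 3 after DEN for 22 (29.5% of all). Knockout replicate 3 after DEN was the lowest of its group for 28 members (32.7% of all). Sign counts and calls that move with these arrays are given below with and without them.

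Fat markers were high on the same arrays. Adipoq, which encodes the fat cell hormone adiponectin, gave 864 on knockout replicate 1 after DEN and 463 on knockout replicate 2 after saline, against 1.87 to 33.3 on the other 16 arrays. Fabp4, the fatty acid carrier gene of fat cells and macrophages, gave 4499 and 2851 on those arrays. On the others Fabp4 lay between 270.99 and 499, with its highest values in wild type on replicate 3 after DEN (499) and replicate 2 at 4 weeks (439). Retn, the resistin gene, gave 403 and 351 on the 2 knockout arrays and at most 71.5 elsewhere. The pancreatic genes of the same list varied. Cel was highest in its group on both arrays. It gave 37.8 on the DEN array (24.7 and 17.3 on the other knockout DEN arrays) and 61.6 on the saline array (37.5 and 45.2 on the others). Cela1 was lowest in its group on both, at 679 and 686. In the knockout groups with DEN or saline, Cpa1 gave at most 5.14 and Ctrb1 at most 39.1, and neither was highest on those arrays. The summed signal of the list of 7 pancreas and fat genes (5 above the filter) was 6494 and 4420 on the 2 arrays, and 789 to 1329 on the other 16. The part of fat tissue RNA in the members' values was not tested, beyond leaving these arrays out.

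**Figure D1:**
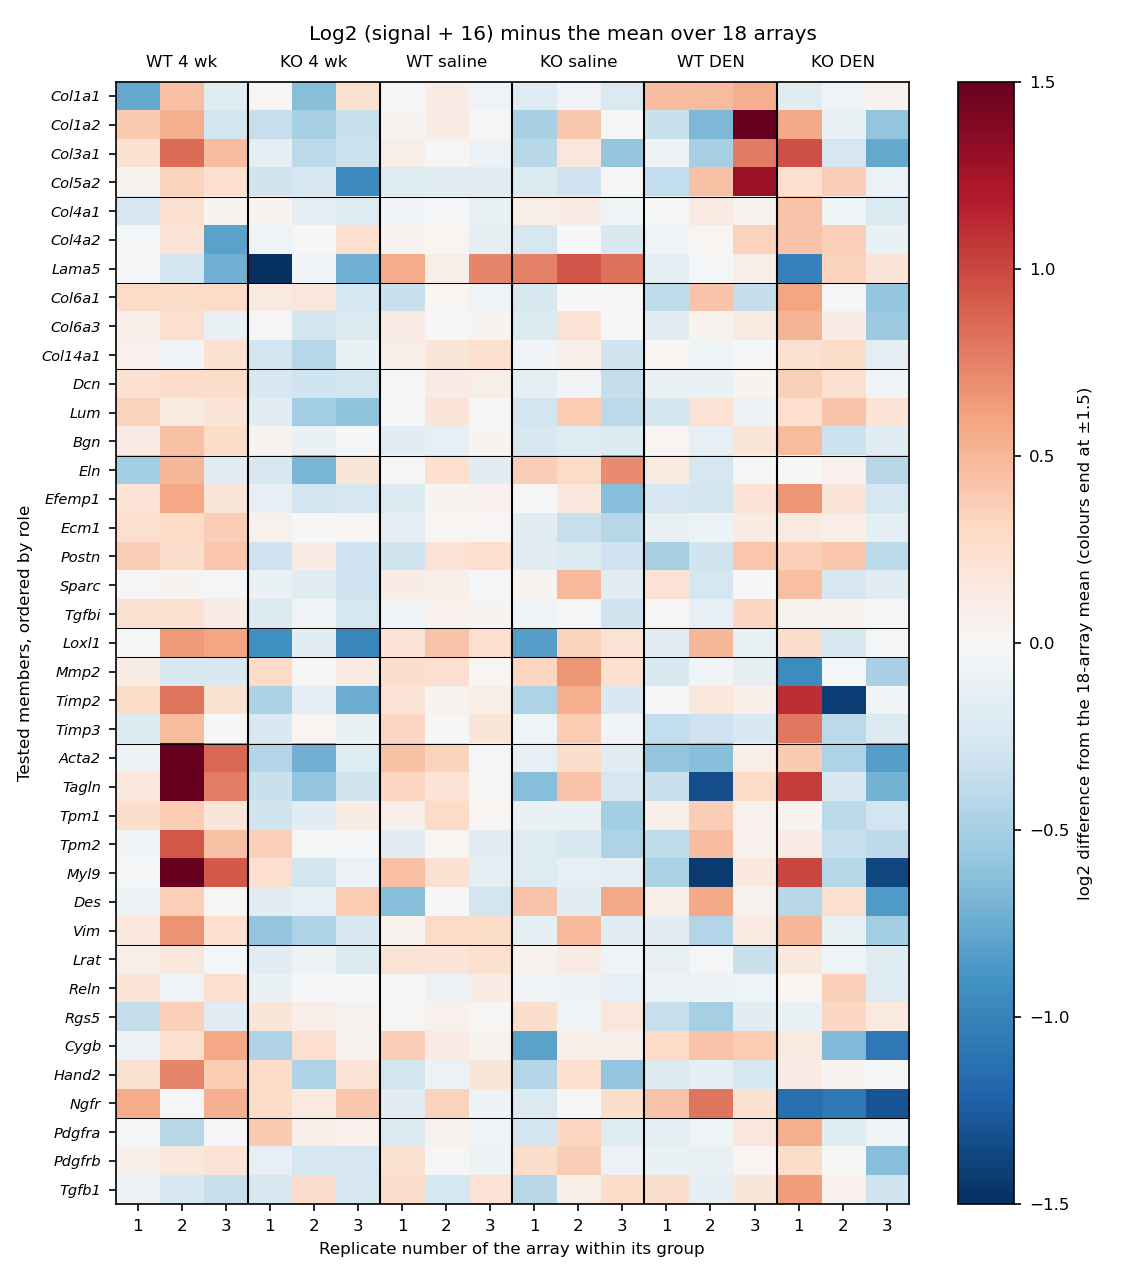
Log2(signal + 16) of the 39 tested members (vertical axis, grouped by role) on each of the 18 arrays (horizontal axis, 3 per group), shown as the difference from the gene's mean over the 18 arrays; colours end at -1.5 and 1.5. The wild-type arrays at 4 weeks, which hold the highest group mean for 18 members, and the knockout arrays at 4 weeks, which hold the lowest for 20, differ visibly in contractile genes such as Acta2 and in Loxl1.

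The first question of the design is whether the genotypes differed before any injection. In uninjected livers at 4 weeks, Dcn and Acta2 fell in knockout, and no tested member rose. Of all tested probe sets 2.26% were called, 0.992% lower and 1.27% higher. After quantile normalisation the same 2 members were called (Dcn -0.49, adjusted p 0.00532; Acta2 -1.38, 0.0398), against 2.05% of all. Below the threshold the set leaned the same way: 33 of 39 tested members had a negative difference, with a median of -0.34 against 0.02 over all tested probe sets. In 21 members every knockout array lay below every wild-type array (8.59% of all tested probe sets), and in 1, the platelet-derived growth factor receptor gene Pdgfra, every knockout array lay above (10.9% of all). An unadjusted p under 0.05 was reached by 15 of 39 members, against 14.9% of all tested probe sets.

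The small leucine-rich proteoglycans bind collagen fibrils and regulate their diameter. Dcn, the decorin gene on chromosome 10 (97479500 to 97518163, build GRCm38), gave signals of 2783, 2881 and 2875 in wild type and 2027, 1934 and 1944 in knockout at 4 weeks. The groups were far apart relative to their spread, 2846 ± 55.1 against 1968 ± 50.7 (SD, n = 3 each). Dcn fell by 0.53 (SE 0.10, limma adjusted p 0.00413), and this held in each of the 6 fits that left out 1 of the 6 arrays at 4 weeks. A second, dimmer Dcn probe set with a mean log2 of 5.25 gave -0.33, and with all probe sets of the gene averaged the difference was -0.43 (adjusted p 0.12). Lum, the lumican gene beside Dcn on chromosome 10 (97565501 to 97572703), gave 179, 152 and 159 in wild type and 121, 90.4 and 84.5 in knockout. Its groups did not overlap, and its difference of -0.65 (SE 0.18) had a limma adjusted p of 0.055. The biglycan gene Bgn had a smaller difference of -0.30 (SE 0.15, adjusted p 0.336), also without overlap.

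Contractile and filament genes held the largest differences among the tested members at 4 weeks, those of Acta2 and Tagln. Acta2 encodes smooth muscle actin, the classical marker of an activated stellate cell, and lies on chromosome 19 (34240336 to 34255585). Its signals at 4 weeks were 135, 583 and 273 in wild type and 101, 80.1 and 123 in knockout. The groups did not overlap, although wild-type replicate 1 was close to the highest knockout array and replicate 2 stood far above all others. Acta2 fell by 1.35 (SE 0.35, limma adjusted p 0.0423), the group means being 330.1 ± 230 and 101 ± 21.6 (SD, n = 3 each). Its call was lost without wild-type replicate 2 (-0.85, adjusted p 0.157), without wild-type replicate 3 (-1.37, 0.107), and without knockout replicate 1 (-1.36, 0.116), replicate 2 (-1.22, 0.15) or replicate 3 (-1.49, 0.0759). It remained only without wild-type replicate 1 (-1.84, 0.00571). Replicate 2 of wild type, which gave the highest Acta2, also had the highest Gapdh 3'/5' ratio, 2.19. With that ratio as a covariate the Acta2 difference was -1.39 (adjusted p 0.0104), and without the array of highest ratio in each genotype it was -0.85 (0.278). The Acta2 probe set is of a type that Affymetrix marks as shared between transcripts, so signal from other actins is not separable.

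None of the other contractile genes passed the test. Tagln gave 54.9, 163 and 91.4 in wild type and 33.9, 25.7 and 35.1 in knockout, without overlap (-1.23, SE 0.40, limma adjusted p 0.128). Myl9 gave 35.3, 149.7 and 82.1 against 45.5, 26.7 and 32.6, and its groups overlapped (-0.90, SE 0.46, adjusted p 0.37). In Acta2, Tagln and Myl9 alike, wild-type replicate 2 was the highest and replicate 1 the lowest of the wild-type arrays. This order was not particular to them, and Vim and Tpm2 had it too. Replicate 2 was highest for 26 of 39 members (42.4% of all tested probe sets), and replicate 1 lowest for 20 (35.2% of all). The Gapdh 3'/5' ratio of these arrays had the same order (1.13, 2.19 and 1.29). Vim encodes vimentin, the intermediate filament of mesenchymal cells, on chromosome 2 (13574311 to 13582826). Vim gave 438, 633 and 472 in wild type and 255.7, 279 and 332 in knockout, without overlap, and its difference of -0.79 (SE 0.21) just missed the threshold (adjusted p 0.0508). The tropomyosin genes Tpm1 (-0.40, SE 0.15, adjusted p 0.207) and Tpm2 (-0.34, SE 0.21, adjusted p 0.473) had smaller negative differences. Des, which encodes desmin and marks rodent stellate cells whether or not they are activated, differed by -0.07 (SE 0.27, adjusted p 0.939).

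The promoters of the members were read for the CArG box, the element bound by serum response factor at many smooth muscle genes. RefSeq promoters (build GRCm38.p6) were at hand for 30 members, and the 250 bases before the start were searched on both strands; Tagln and Dcn were not in the table. Members were counted as genes, with a match in any promoter of the gene, while the percentages over all count single promoters. The shares are thus not in the same unit. A CArG box was found in 1 of 30 members (Myl9), against 1.47% of 32851 promoters. A form with 1 inner G or C was found in 6 of 30 (Acta2, Col1a2, Col6a3, Lrat, Myl9 and Timp3), against 7.24%. GGAATG, a core of the element bound by TEAD factors, was found in 5 of 30 (Acta2, Col3a1, Lrat, Timp1 and Tpm1) against 12.64%, and TATAAA in 4 of 30 (Col3a1, Ecm1, Postn and Vim) against 12.37%. The sequences below show the Acta2, Myl9 and Vim matches, with Ecm1 as a member outside the contractile group. Capitals mark the CArG-type matches in Acta2 and Myl9 and TATAAA in Vim and Ecm1. The windows are chr19:34255438-34255467 (distal) and chr19:34255388-34255417 (proximal) on the minus strand for Acta2, chr2:156775299-156775407 on the plus strand for Myl9, chr2:13574146-13574310 on the plus strand for Vim, and chr3:95739579-95739608 on the minus strand for Ecm1. The first Myl9 match is the CArG box and the second has 1 inner G or C, as have both Acta2 matches.
Acta2 distal: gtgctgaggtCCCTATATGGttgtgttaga
Acta2 proximal: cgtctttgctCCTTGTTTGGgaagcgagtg
Myl9: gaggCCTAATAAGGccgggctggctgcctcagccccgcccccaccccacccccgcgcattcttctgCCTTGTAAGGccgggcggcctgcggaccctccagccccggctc
Vim: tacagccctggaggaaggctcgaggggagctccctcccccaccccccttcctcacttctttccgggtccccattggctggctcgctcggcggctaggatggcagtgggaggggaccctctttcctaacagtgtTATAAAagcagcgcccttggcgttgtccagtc
Ecm1: cgggagatagcaTATAAAgagagacagaca
The Acta2 and Ecm1 windows lie inside the annotated span of their gene, which holds a further start upstream. A match describes the letters in the window and not a bound site, and these arrays did not measure binding.

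**Figure D2:**
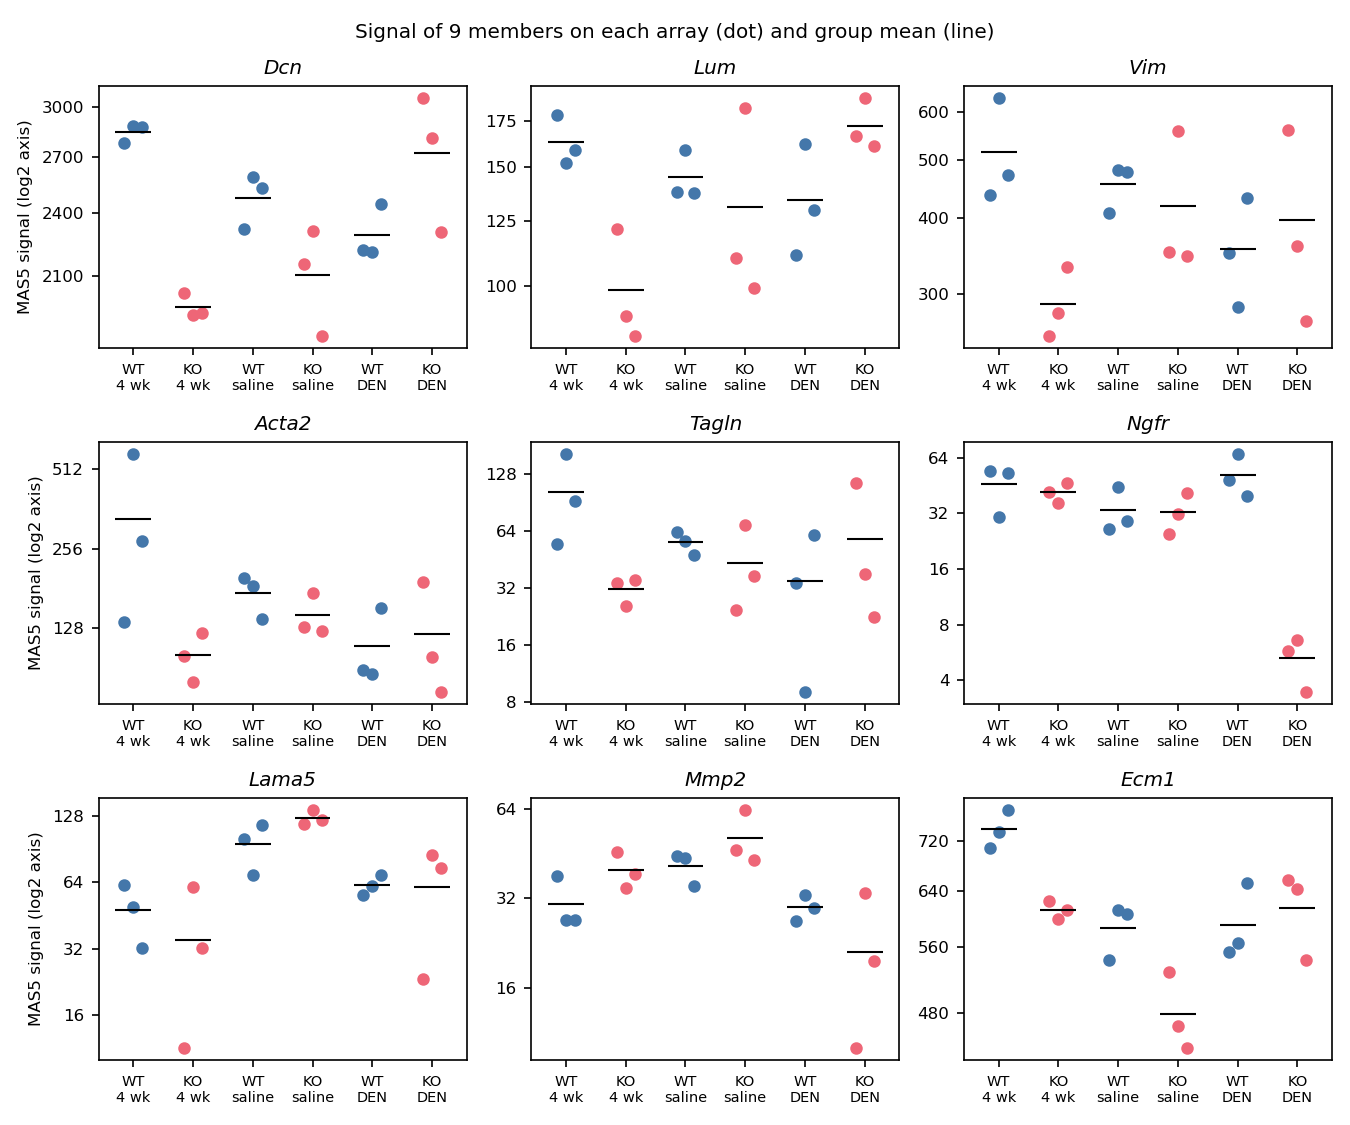
Log2 signal (vertical axis) of 9 members, Dcn, Lum, Vim, Acta2, Tagln, Ngfr, Lama5, Mmp2 and Ecm1, in the 6 groups (horizontal axis); each dot is 1 array and each line a group mean. Dcn in wild type and knockout at 4 weeks is separated by far more than its spread, while Acta2 in wild type at 4 weeks ranges from 135 to 583, and Ngfr in knockout after DEN lies below every other group.

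Fibrillar collagens give the interstitial matrix its tensile strength, and 3 of the 4 tested here had negative differences at 4 weeks. Col3a1 gave 349.7, 546 and 416 in wild type and 269, 220.3 and 234 in knockout, without overlap (-0.80, SE 0.32, limma adjusted p 0.222). Col1a2 (-0.61, SE 0.39) and Col5a2 (-0.72, SE 0.29, adjusted p 0.237) were also lower on every knockout array. Col1a1, which encodes the partner chain of Col1a2 in type I collagen, gave 10.0, 44.7 and 23.1 against 28.8, 12.5 and 35.8 and differed by 0.03 (SE 0.26). The 2 chains of type I collagen therefore had unlike values here, on probe sets whose signals were low for Col1a1. The median over the fibrillar collagens was -0.66.

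Basement membrane genes differed less, with a median of -0.11: Col4a1 -0.11 (SE 0.14), Col4a2 0.28 (SE 0.20) and the laminin chain gene Lama5 -0.42 (SE 0.32). Among the beaded and fibril-associated collagens, which tie fibrils to cells and to each other, Col6a1 (-0.27, SE 0.25), Col6a3 (-0.24, SE 0.20) and Col14a1 (-0.35, SE 0.12, limma adjusted p 0.156) were all negative, and Col6a1 and Col14a1 did not overlap between genotypes.

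Elastic fibre and matricellular genes had a median of -0.32 at 4 weeks, with 6 of 6 tested members negative. Tgfbi, a secreted adhesion protein gene induced by TGF-beta, gave 437, 439 and 406 in wild type and 320.0, 358 and 307 in knockout, without overlap (-0.37, SE 0.11, limma adjusted p 0.0908). Ecm1, on chromosome 3 (95734147 to 95739876), gave 709, 736 and 775 against 625, 599 and 612, also without overlap (-0.27, SE 0.10, adjusted p 0.175). Postn, the periostin gene, differed by -0.52 (SE 0.22) and the fibulin gene Efemp1 by -0.54 (SE 0.20, adjusted p 0.189). Sparc, which encodes a collagen-binding glycoprotein, differed by -0.20 (SE 0.17) and the elastin gene Eln by -0.19 (SE 0.25). Loxl1, a lysyl oxidase that crosslinks elastin, gave 26.4, 50.4 and 47.9 in wild type and 6.46, 21.7 and 5.62 in knockout. No knockout array of Loxl1 reached the lowest wild-type array, and the difference was -1.10 (SE 0.30, adjusted p 0.0594).

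Proteases, inhibitors, identity markers and receptors varied in sign. Timp2, an inhibitor of metalloproteinases, gave 107, 161 and 103 in wild type and 57.2, 75.9 and 44.5 in knockout, without overlap (-0.89, SE 0.38, limma adjusted p 0.261), and Timp3 differed by -0.19 (SE 0.22). Mmp2, the gelatinase gene, differed by 0.26 (SE 0.22), while its other tested probe set gave -0.57, so its direction depends on the probe set. Lrat, which esterifies retinol for storage and marks quiescent stellate cells, gave 216, 230.1 and 199.6 against 177, 191 and 173, without overlap (-0.23, SE 0.12, adjusted p 0.354). Reln, another marker of quiescent cells, differed by -0.17 (SE 0.11), and the transcription factor gene Hand2 by -0.43 (SE 0.22). The neurotrophin receptor gene Ngfr differed by -0.08 (SE 0.22), the pericyte gene Rgs5 by 0.17 (SE 0.14) and the globin gene Cygb by -0.31 (SE 0.30). The receptors for platelet-derived growth factor, the main mitogen of stellate cells, had opposite signs. Pdgfra gave 89.1, 63.8 and 88.7 in wild type and 123, 95.9 and 95.4 in knockout (0.33, SE 0.19, adjusted p 0.448). Pdgfrb gave 132, 141 and 147 against 113, 102 and 102 (-0.36, SE 0.18, adjusted p 0.347). The ligand gene Tgfb1 differed by 0.14 (SE 0.26).

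Markers of another cell type moved with genotype at 4 weeks. Of 18 Kupffer cell and macrophage genes tested, 6 fell in knockout (Tyrobp -1.14, Lyz2 -0.82, Fcna -0.78, C1qa -0.61, C1qc -0.56 and Csf1r -0.53) and all 18 were negative, with a median of -0.56. Their summed signal was 9779 to 10362 in wild type and 6375 to 7006 in knockout, and none of the 18 was below the filter. The members' own summed signal was 10813 to 12992 in wild type and 8672 to 9004 in knockout. The part of macrophage RNA in the members' result was not tested. Other lists moved less. None of 23 further stellate cell genes passed the test (17 negative, median -0.27), their summed signal being 12562 to 13411 in wild type and 12254 to 13496 in knockout. None of 7 smooth muscle genes (median -0.14), 8 portal fibroblast and mesothelial genes (median -0.00) or 22 endothelial genes (median -0.04) passed either. The summed endothelial signal was still lower in knockout without overlap, at 7475 to 7576 in wild type and 6937 to 7186 in knockout. That of the pancreas and fat list was higher in knockout without overlap, at 789 to 881 in wild type and 1039 to 1154 in knockout. Of that list 1 of 5 tested genes rose. Cela1 gave 352 to 457 in wild type and 684 to 753 in knockout. The fat genes Fabp4 (286 to 439 and 291 to 310) and Adipoq (1.87 to 33.3 and 9.16 to 17.2) overlapped. Cel was lower on every knockout array (22.1 to 29.0 and 8.40 to 21.6).

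The wider matrix and signalling genes had medians nearer to 0 at 4 weeks. None of 28 other matrix protein genes (17 negative, median -0.08), 17 collagen processing genes (9 negative, median -0.02) or 16 further matrix protease genes (9 negative, median -0.06) passed the test. Of 28 TGF-beta and PDGF signalling genes, 2 rose, none fell, and the median was -0.02. The 2 were Skil, an inhibitor of SMAD transcription (0.70, SE 0.12, limma adjusted p 0.0021), and Smad7, the inhibitory SMAD that TGF-beta signalling itself induces (0.95, SE 0.23, adjusted p 0.0336). The summed signal of the signalling list was 6269 to 6704 in wild type and 7181 to 7674 in knockout, without overlap.

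**Figure D3:**
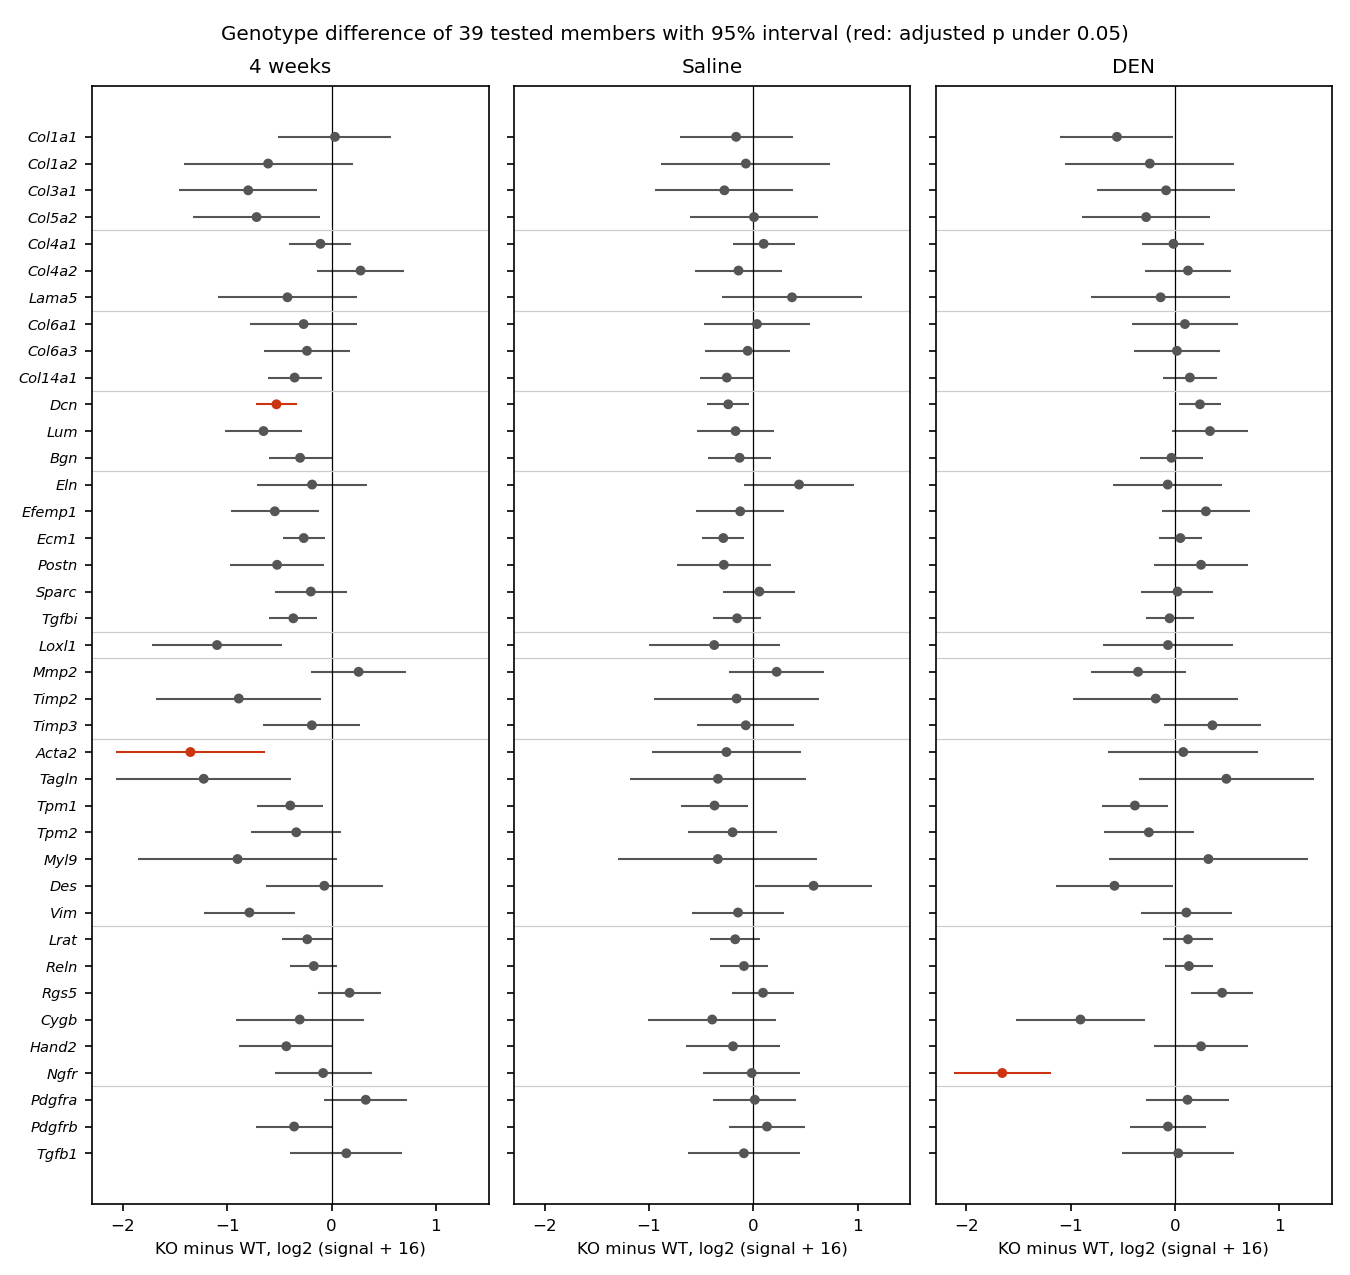
Knockout minus wild-type difference in log2(signal + 16) (horizontal axis) of each tested member (vertical axis) in uninjected livers at 4 weeks, after saline and after DEN (3 panels); bars are 95% intervals from limma, and red marks an adjusted p under 0.05. The points lie mostly left of 0 at 4 weeks, where Dcn and Acta2 are red, and on both sides of 0 after DEN, where Ngfr alone is red.

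After saline the genotypes were closer. No tested member passed the test (0.0111% of all tested probe sets were called, 0.0037% lower and 0.0074% higher, and 4 of 39 members and 5.28% of all had an unadjusted p under 0.05), and the smallest limma adjusted p was 0.813, for Ecm1. The lean was still negative, with 28 of 39 members below 0 and a median of -0.14 against 0.04 over all tested probe sets. After quantile normalisation 31 were below 0, with a median of -0.15, and without knockout replicate 2 after saline 31 were, with a median of -0.21. Dcn gave 2321, 2589 and 2529 in wild type and 2153, 2308 and 1850 in knockout, without overlap (-0.24, SE 0.10, adjusted p 0.925; quantile -0.24, 0.861). Ecm1 gave 543, 611 and 605 against 529, 465 and 441, also without overlap (-0.29, SE 0.10; quantile -0.27). Knockout was lower on every array in 7 members (Col1a1, Dcn, Bgn, Ecm1, Tpm1, Tpm2 and Lrat; 6.85% of all tested probe sets) and higher on every array in Lama5 and Eln (10.9% of all). With quantile normalisation, too, no tested member was called (0.0259% of all). The Kupffer list was lower here too, with 16 of 18 genes negative, none called and a median of -0.22. Its summed signal was 8848 to 10371 in wild type and 7986 to 8602 in knockout, without overlap, and its part in the members' values was not tested. Smad7 of the signalling list rose in knockout here as well (1.52, adjusted p 0.0168).

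With DEN, 21 of the 39 tested members had a positive and 18 a negative knockout minus wild-type difference, with a median of 0.03 against -0.02 over all tested probe sets. This balance depended on single knockout arrays. Without knockout replicate 1 with DEN, the array of high fat markers, 27 of 39 were negative and the median was -0.19, and without replicate 3 there were 12 negative and a median of 0.19. Ngfr fell in knockout, and it was 1 of only 2 probe sets called among all tested (0.0074%). Ngfr encodes the p75 neurotrophin receptor, which stellate cells carry and which has been used to isolate activated cells, and lies on chromosome 11 (95568818 to 95587698). Its signals were 48.3, 67.2 and 39.8 in wild-type and 5.74, 6.59 and 3.45 in knockout livers with DEN, so that the groups were separated by a wide gap. In the 4 other groups Ngfr lay between 24.8 and 54.1 on every array, and the knockout DEN arrays were below all of them. Ngfr fell by 1.66 (SE 0.22, limma adjusted p 0.00733), and by 1.61 after quantile normalisation (adjusted p 0.00826). The knockout DEN signals lie in the range of the members left out as too dim, so the size of the difference is set by the constant added: it was -3.08 with 1 added and -0.73 with 64 added, called with either. Without wild-type replicate 2 with DEN the adjusted p was 0.141, and in a fit of the DEN arrays alone it was 0.794. The other Ngfr probe sets on the array were below the filter and offer no second reading.

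Other members had single-test differences with DEN that did not survive adjustment. Col1a1 gave 45.1, 45.6 and 48.4 in wild type and 23.1, 26.5 and 29.98 in knockout, without overlap (-0.56, SE 0.26, limma adjusted p 0.547). Cygb, a globin gene typical of stellate cells, gave 37.8, 42.6 and 40.6 against 31.8, 11.5 and 4.67 (-0.91, SE 0.30, adjusted p 0.379). Rgs5 gave 394, 352 and 452 against 469.7, 629 and 563 (0.45, SE 0.14, adjusted p 0.374). Dcn was now higher in knockout, with 2218, 2209 and 2446 against 3060, 2811 and 2306, and its groups overlapped (0.24, SE 0.10, adjusted p 0.477). The 4 members lower on every knockout array were Col1a1, Tpm1, Cygb and Ngfr (6.29% of all tested probe sets), and the 2 higher were Rgs5 and Hand2 (4.51% of all). The sum of the Kupffer list was 8673 to 11690 in wild type and 8851 to 12881 in knockout with DEN, and overlapped.

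The change from uninjected livers at 4 weeks to DEN-treated livers is shown next for each genotype. In wild type Acta2 fell and no tested member rose (4.4% of all tested probe sets were called, 1.97% higher and 2.44% lower), and 28 of 39 differences were negative, with a median of -0.21 against 0.03 over all tested. In knockout Dcn and Lum rose and Ngfr fell (8.24% of all called, 3.53% higher and 4.71% lower). A member was thus called no more often than a probe set at large in either genotype. In knockout 30 of 39 differences were positive, with a median of 0.15 against -0.02. Without knockout replicate 1 with DEN, 22 of the 39 were negative, so the balance of signs in knockout turned with that array; Dcn (0.37, limma adjusted p 0.0319), Lum (0.74, 0.0298) and Ngfr (-1.46, 0.00256) were called without it. DEN arrays of each genotype were not compared with saline here, so age, injection and agent all differ. The Gapdh 3'/5' ratio also differed between these groups: it was 1.13 to 2.19 at 4 weeks and 0.907 to 1.13 with DEN. Its part in the result was examined only by fits given below. In these the ratio was a covariate, or the 4-week array of highest ratio in each genotype was left out.

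In wild type, Acta2 went from 135, 583 and 273 at 4 weeks to 89.2, 86.2 and 153 with DEN. The groups overlapped, since wild-type replicate 3 with DEN was above replicate 1 at 4 weeks. Acta2 fell by 1.28 (SE 0.35, limma adjusted p 0.0377), and the call was lost without wild-type replicate 2 (-0.77, adjusted p 0.219) or replicate 3 (-1.30, 0.0862) at 4 weeks and without replicate 1 (-1.17, 0.0955) or replicate 2 (-1.15, 0.127) with DEN. With the Gapdh ratio as a covariate Acta2 differed by -0.62 (adjusted p 0.474). Myl9 (-1.45, SE 0.46, adjusted p 0.0743) and Tagln (-1.27, SE 0.40, adjusted p 0.0754) had differences of similar size short of the threshold. Dcn (-0.31, SE 0.10, adjusted p 0.0664), Ecm1 (-0.32, SE 0.10, adjusted p 0.0637) and Hand2 (-0.65, SE 0.22, adjusted p 0.0939) were lower on every DEN array. The members lower without overlap numbered 9, namely Dcn, Ecm1, Timp2, Timp3, Vim, Lrat, Reln, Hand2 and Pdgfrb (8.62% of all tested probe sets). Col1a1 alone was higher without overlap (10.5% of all), at 45.1, 45.6 and 48.4 with DEN against 10.0, 44.7 and 23.1 at 4 weeks (0.66, SE 0.26, adjusted p 0.161). Without wild-type replicate 3 with DEN, an array on which 22 members were the highest of the group, 4 members were called rather than 1.

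In knockout, Dcn rose from 2027, 1934 and 1944 at 4 weeks to 3060, 2811 and 2306 with DEN, with no overlap (0.46, SE 0.10, limma adjusted p 0.00651). Its dimmer second probe set went the other way (-0.78, adjusted p 0.083), and the mean of both was -0.16 (adjusted p 0.524), so the rise rests on the brighter probe set. Lum rose from 121, 90.4 and 84.5 to 166, 189 and 161, again without overlap (0.72, SE 0.18, adjusted p 0.0151). The Lum call was lost without knockout replicate 3 at 4 weeks (0.63, adjusted p 0.0736) or replicate 2 with DEN (0.66, 0.0673). With the Gapdh ratio as a covariate the adjusted p was 0.222 for Dcn (0.46) and 0.422 for Lum (0.59). Ngfr fell from 41.7, 36.5 and 46.9 to 5.74, 6.59 and 3.45 (-1.44, SE 0.22, adjusted p 0.000905), and it passed the test without any 1 of the arrays. Acta2 gave 101, 80.1 and 123 at 4 weeks and 192, 99.4 and 73.5 with DEN. Its groups overlapped and differed by 0.15 (SE 0.35, limma adjusted p 0.844). After quantile normalisation the fibril-associated collagen gene Col14a1 also rose (0.39 with adjusted p 0.0546 before, 0.0466 after; 8.2% of all called). Fibrillar collagens had a median of 0.31 here, with Col5a2 at 0.68 (SE 0.29, adjusted p 0.159) and Col1a1 at 0.07 (SE 0.26). Higher without overlap were 4 members, Col5a2, Dcn, Lum and Tgfbi (11.7% of all tested probe sets), and lower were Mmp2 and Ngfr (14.4% of all). On the Kupffer list 12 of 18 genes rose in knockout (Tyrobp 1.22 and Lyz2 1.19 among them), all 18 were positive and the median was 0.60, whereas in wild type none passed and the median was 0.06. The part of macrophage RNA in the rise of Dcn and Lum was not tested.

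**Figure D4:**
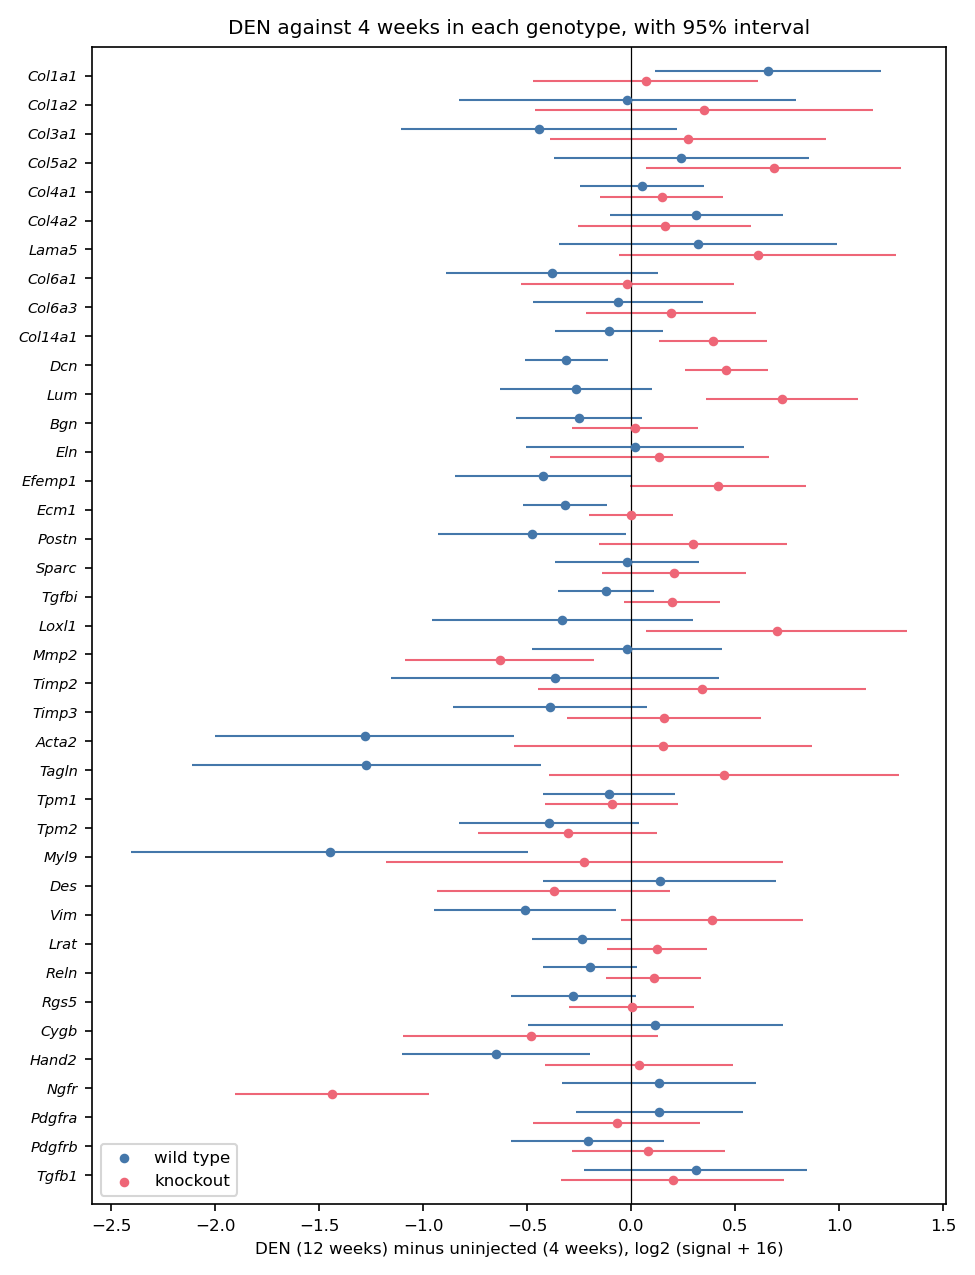
Difference in log2(signal + 16) between DEN-treated livers and uninjected livers at 4 weeks (horizontal axis) for each tested member (vertical axis), in wild type and in knockout; bars are 95% intervals from limma. In wild type 28 of 39 points lie below 0, and in knockout 30 lie above 0, with Ngfr at -1.44 the lowest.

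The test of the difference between these changes asks whether the genotype difference itself shifted between 4 weeks and DEN. It was higher with DEN for Dcn (0.77, SE 0.14, limma adjusted p 0.0111) and lower for Ngfr (-1.57, SE 0.32, adjusted p 0.0222), 2 of 39 members against 0.762% of all tested probe sets. Among the members, 31 values were positive, with a median of 0.32 against -0.05 over all tested (0.19 without knockout replicate 1 with DEN), and 13 had an unadjusted p under 0.05 against 13.99% of all. Dcn passed without any 1 of the 12 arrays. Its second probe set gave 0.27 (adjusted p 0.813), and the mean of both probe sets gave 0.52 (adjusted p 0.219). Ngfr did not pass without knockout replicate 1 (-1.57, adjusted p 0.0507) or replicate 3 (-1.51, 0.0727) at 4 weeks, or without wild-type replicate 2 with DEN (-1.42, 0.0544). Short of the threshold stood Lum (0.99, SE 0.25, adjusted p 0.0641), Vim (0.90, SE 0.30, adjusted p 0.165), Tagln (1.72, SE 0.57, adjusted p 0.165) and Acta2 (1.43, SE 0.49, adjusted p 0.177). By role the medians were 0.90 for contractile genes, 0.77 for the proteoglycans, 0.41 for fibrillar collagens and 0.09 for basement membrane genes. On the Kupffer list 3 of 18 genes (Fcna, Lyz2 and Tyrobp) rose in the same test, and 18 were positive. The changes in wild type and knockout and this test share arrays with the comparison at 4 weeks, so none of them is an independent repeat of it.

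DEN was also set against its labelled control, saline, within each genotype. In wild type no tested member passed the test, while 6.54% of all tested probe sets were called, 3.4% higher and 3.13% lower (3.63% in all after quantile normalisation). The smallest adjusted p was that of Lrat, at 236, 234 and 242 with saline and 186, 199 and 157 with DEN, without overlap (-0.37, SE 0.12, limma adjusted p 0.0595; quantile -0.32, 0.135). Of the 39 members, 17 were positive and 22 negative, with a median of -0.06 (18 and 21 after quantile normalisation, median -0.02). Without wild-type replicate 3 with DEN 28 were negative, and without replicate 1 there were 18. Lower without overlap were 6 members, Lama5, Col14a1, Mmp2, Timp3, Lrat and Rgs5 (13.6% of all), and higher were 3, Col1a1, Col4a1 and Des (12.2% of all). Col1a1 gave 27.6, 31.9 and 26.8 with saline and 45.1, 45.6 and 48.4 with DEN, a difference of 0.48 (quantile 0.44).

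In knockout, 5 members passed, 2 higher and 3 lower, against 15.1% of all tested probe sets, 6.42% higher and 8.65% lower (10.9% in all after quantile normalisation), so a member was called no more often than a probe set at large. Dcn rose from 2153, 2308 and 1850 to 3060, 2811 and 2306, with an overlap, since the lowest DEN array lay just below the highest saline array (0.37, SE 0.10, limma adjusted p 0.0124). After quantile normalisation Dcn differed by 0.25 (adjusted p 0.0813), and its second probe set gave -1.10 (adjusted p 0.00984), the opposite direction. Ecm1 rose from 529, 465 and 441 to 656, 643 and 543 (0.35, SE 0.10, adjusted p 0.0184; quantile 0.38, 0.0141), without overlap. The Ecm1 call was lost without replicate 2 (0.33, adjusted p 0.062) or replicate 3 (0.29, 0.0997) of saline, or replicate 1 (0.30, 0.0757) or replicate 2 (0.31, 0.0675) of DEN. The Dcn call was lost without replicate 3 of saline (0.28, adjusted p 0.0946) or replicate 1 of DEN (0.28, 0.0751).

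Mmp2, which degrades denatured and basement membrane collagen, fell from 46.5, 63.4 and 43.1 with saline to 10.0, 33.4 and 19.7 with DEN in knockout, without overlap (-0.89, SE 0.22, limma adjusted p 0.00796; quantile -0.76, 0.0265). Without replicate 2 of saline the Mmp2 difference was -0.76 (adjusted p 0.0507), and without replicate 1 of DEN -0.66 (0.0511). The other tested Mmp2 probe set gave -0.10 (adjusted p 0.856). Lama5 fell from 118, 137 and 123 to 23.3, 85.1 and 74.8, without overlap (-0.99, SE 0.32, adjusted p 0.04), and after quantile normalisation the difference was -0.87 (0.0853). The Lama5 call was lost without replicate 1 (-1.03, adjusted p 0.0835), replicate 2 (-0.94, 0.107) or replicate 3 (-1.01, 0.0958) of saline or replicate 1 of DEN (-0.56, 0.237), and its second tested probe set gave 0.23. Ngfr fell from 24.8, 31.8 and 41.4 to 5.74, 6.59 and 3.45 (-1.18, SE 0.22, adjusted p 0.000908; quantile -1.05, 0.00366), and was called whichever array was left out. Across the 39 members 23 differences were positive and 16 negative, and after quantile normalisation 29 and 10. Without knockout replicate 1 with DEN, the array on which 27 members were the highest of the group, 26 of 39 were negative and 1 was called, so here too the balance of signs turned with that array. On the Kupffer list 7 of 18 genes rose and 17 were positive, with a median of 0.43, and its part in the members' values was not tested. Scaling moved another list further: 8 of 10 hepatocyte genes rose in knockout with a median of 0.99 on the deposited scale, and none rose, with a median of -0.12, after quantile normalisation.

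The genotype difference with DEN minus that with saline called no tested member and 0% of all tested probe sets. An unadjusted p under 0.05 was reached by 5 of 39 members, against 8.03% of all tested probe sets. Among the 5 were Ngfr (-1.64, SE 0.32, limma adjusted p 0.258, quantile -1.49, 0.349), Dcn (0.48, SE 0.14, adjusted p 0.43, quantile 0.43, 0.474) and Des (-1.16, SE 0.38, adjusted p 0.438, quantile -0.99, 0.568).

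Of 39 tested members, saline against uninjected livers at 4 weeks called 1 in wild type (Ecm1) and 2 in knockout (Ecm1 and Lama5). In wild type 8.26% of all tested probe sets were called, 4.22% higher and 4.04% lower (5.24% in all after quantile normalisation). There 27 of 39 differences were negative, with a median of -0.16 against 0.04 over all tested probe sets. After quantile normalisation 29 were negative, with a median of -0.20. Lower without overlap were 11 members (11.6% of all), and higher were 2 (15.8% of all). DEN against the same wild-type arrays at 4 weeks had 28 negative and a median of -0.21. In knockout 9.94% of all tested probe sets were called, 5.09% higher and 4.84% lower (7.18% in all after quantile normalisation). Members were called no more often than probe sets at large in either genotype. In knockout 25 differences were positive, with a median of 0.09 against 0.07 over all (23 and 0.08 after quantile normalisation). Higher without overlap were 6 members (18.9% of all), and lower were 3 (14.1% of all). Ecm1 fell from 709, 736 and 775 to 543, 611 and 605 in wild type (-0.33, SE 0.10, limma adjusted p 0.0384) and from 625, 599 and 612 to 529, 465 and 441 in knockout (-0.35, SE 0.10, adjusted p 0.025), without overlap in either, and both calls held after quantile normalisation. In wild type the Ecm1 call was lost without replicate 2 (-0.33, adjusted p 0.0731) or replicate 3 (-0.29, 0.138) at 4 weeks and without replicate 1 (-0.28, 0.192), replicate 2 (-0.36, 0.0722) or replicate 3 (-0.35, 0.0722) of saline. In knockout it was lost without any 1 of the arrays at 4 weeks (adjusted p 0.0877, 0.0517 and 0.0617 for replicates 1, 2 and 3) and without replicate 2 (0.0942) or replicate 3 (0.129) of saline. Lama5, whose product is part of the laminin of epithelial and vascular basement membranes, rose from 11.3, 61.3 and 32.3 to 118, 137 and 123 in knockout. All saline arrays of Lama5 stood well above all arrays at 4 weeks (1.60, SE 0.32, adjusted p 0.00213; after quantile normalisation 0.00596), and the call was kept whichever array was left out. In wild type Lama5 went from 62.0, 49.3 and 32.3 to 101, 69.3 and 116, without overlap (0.81, SE 0.32, adjusted p 0.139). The second tested Lama5 probe set differed by -0.01 in knockout (adjusted p 0.994), so the rise was seen on 1 of its probe sets only.

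Agreement between probe sets of a gene could be read for the 19 members with several tested probe sets. For the knockout minus wild-type difference at 4 weeks, 10 of these 19 members were negative on every probe set, none was positive on every one, and 9 were mixed. For the change from 4 weeks to DEN in knockout, 9 were positive on every probe set, none was negative on every one and 10 were mixed. The 3 Vim probe sets lay between -0.61 and -0.87 at 4 weeks.

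Genes of the related lists were also called in DEN against 4 weeks, where 8.24% of all tested probe sets were called in knockout and 4.4% in wild type. In knockout 2 of 28 signalling genes fell, Skil (-0.66) and Smad4 (-0.47), the shared partner of the receptor-activated SMADs. Among 28 other matrix genes Prelp (0.57), a further leucine-rich proteoglycan gene, rose and the basement membrane collagen gene Col18a1 (-0.50) fell. Among 23 further stellate cell genes Angptl6 (0.41) rose and Adamtsl2 (-0.88) and the potassium channel subunit gene Abcc9 (-0.34) fell. Also called in knockout were the collagen export gene Mia3 (-0.38), 1 of 17 collagen processing genes, the protease gene Mmp14 (-0.48), 1 of 16, and the mesothelial gene Gpm6a (1.06), 1 of 8. Of the other cell types, the cholangiocyte genes Sox9 (-0.92) and Ezr (-0.78), 2 of 4, the endothelial gene Bmp2 (-0.61), 1 of 22, and the hepatocyte genes Hnf4a (-0.43) and Tat (-1.17), 2 of 10, fell. In wild type Abcc9 (-0.40) and the endothelin receptor gene Ednrb (-0.56) fell among the stellate cell genes, Pdgfc (-0.56) among the signalling genes and Tpm4 (-0.40) among 7 smooth muscle genes. Ezr (1.02), the endothelial gene Lyve1 (1.06) and Cela1 (0.50) of the pancreas and fat list rose in wild type.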

How the data were processed

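The samples are 18 Affymetrix arrays of liver RNA, in 6 groups of 3. The authors deposited 1 linear intensity per probe set and array, made with MAS5 (version not given) per the submitters' processing notes; the mean without the lowest and highest 2% was 150 on each array. No detection calls, counts or depths were used, and the number of arrays limits precision. Of 45101 probe sets, 64 controls were set aside; of the other 45037, 34945 have 1 gene symbol, 932 several and 9160 none in the platform annotation. After adding 16 and taking log2, probe sets at or above the 40th percentile of the mean over all arrays entered the tests (27022). The fit used limma 3.58.1 under R 4.3.3 (linear model and eBayes with an intensity trend, 1 coefficient per group, 12 residual and 9.19 prior degrees of freedom), two-sided, with a threshold of 0.05 after Benjamini-Hochberg adjustment.

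Each member was represented by its probe set of highest mean; all 43 members are described by role, and those called in a contrast were followed through the alternatives, or the 3 with the smallest p where none was called. The members, the 14 gene lists (259 genes, 239 with a probe set) and the tests were chosen with earlier results of these data known. Summed list signals add the linear values of those probe sets. No 2 arrays held identical values (0 pairs), and arrays of a group correlated at 0.970 to 0.988. Alternatives were other normalisations, added constants, filters, weights, probe set rules and sets of arrays. On data simulated for the comparison of genotypes at 4 weeks (27022 probe sets, 200 changed), 7.14% of calls were false. The simulated noise was independent between probe sets, whereas single arrays here carried many members together, so this share is not that of the real data. Gene positions are from the GRCm38 annotation, and promoters are RefSeq's (GRCm38.p6).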

Additional observations from a re-analysis of the deposited data

Results flagged for a closer look

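The genotype difference itself shifted between uninjected livers at 4 weeks and DEN-treated livers in 2 members, by the interaction test over all tested probe sets. For Dcn the knockout minus wild-type difference with DEN minus that at 4 weeks was 0.77 (limma adjusted p 0.0111): knockout was lower than wild type on every array at 4 weeks and higher on 2 of 3 knockout arrays than on every wild-type array with DEN. For Ngfr the same quantity was -1.57 (limma adjusted p 0.0222): the genotypes overlapped at 4 weeks and did not with DEN. Groups of 3 arrays were not searched for single outlying values.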

How the results depend on the processing

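Of the 554 values that alternatives and left-out arrays gave for 26 followed gene differences (17 of them called), 453 kept direction and side of the threshold, 93 were no longer called, 6 became called and 2 turned sign. The 2 were Dcn with all its probe sets averaged, at -0.36 for DEN minus saline and -0.16 for DEN minus 4 weeks in knockout. Leaving out 1 array gave medians of the members of -0.38 to -0.28 at 4 weeks, -0.21 to -0.08 with saline, -0.19 to 0.19 with DEN (12 to 27 of 39 negative), and 0.19 to 0.44 for the shift of the genotype difference.

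Counts of called members were small and moved more; the causes were not tested. At 4 weeks (2 called) the genotype comparison called 4 with cyclic loess, a 60th percentile filter or array weights, 1 with 1 added, no filter, no intensity trend, or without the saline arrays, and 0 with probe sets averaged. With DEN (1 called) it called 0 with the 60th percentile filter, array weights, without the saline arrays or with only the compared groups. DEN minus saline in wild type (0 called) called 1 with centred medians, the 60th percentile filter or array weights. In knockout (5 called) it called 3 with quantile, cyclic loess or the 60th percentile filter, 2 with probe sets averaged or the Gapdh covariate, and 1 with only the compared groups. DEN minus 4 weeks in wild type (1 called) called 5 with centred medians, 2 with the 60th percentile filter or probe sets averaged, and 0 with no filter, no trend, array weights, without the saline arrays or with only the compared groups. In knockout (3 called) it called 1 with the Gapdh covariate. Saline minus 4 weeks (1 called in wild type, 2 in knockout) called 0 in wild type with centred medians, no trend or the Gapdh covariate and 4 with array weights, and 1 in knockout with no trend. The shift of the genotype difference from 4 weeks to DEN (2 called) called 1 with no filter, the 60th percentile filter, no trend, array weights, probe sets averaged, without the saline arrays or with only the compared groups.

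Both settings that follow were chosen after seeing the data. Without the array of highest Gapdh ratio in each genotype at 4 weeks, the counts were 1 for genotype at 4 weeks, 0 for DEN minus 4 weeks in wild type, 0 and 1 for saline minus 4 weeks in wild type and knockout, and 1 for the shift of the genotype difference. Without the DEN array of each genotype on which most members were highest, they were 1 for DEN minus saline in knockout and 5 for DEN minus 4 weeks in wild type.

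Leaving out 1 array gave counts of 1 to 2 for genotype at 4 weeks, 0 to 0 with saline and 0 to 1 with DEN. It gave 0 to 1 in wild type and 1 to 5 in knockout for DEN minus saline, 0 to 4 and 2 to 4 for DEN minus 4 weeks, and 0 to 3 and 1 to 3 for saline minus 4 weeks. The shift of the genotype difference gave 1 to 3 against 4 weeks and 0 to 0 against saline.

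Same-numbered arrays shared little of their deviations: those of 45 same-numbered pairs correlated at -0.10 to 0.12, with 2 above 0.1. Wild type with saline against wild type with DEN was positive for replicates 1, 2 and 3 (0.12, 0.06 and 0.08). Pairing is not excluded by such low values. With the replicate block, DEN minus saline in wild type called 1 member and saline minus 4 weeks in wild type 0; the block also took the Acta2 call at 4 weeks to an adjusted p of 0.0535 and Ecm1 in wild type to 0.0547. Dim probe sets such as Ngfr in knockout with DEN lie near the low end of the scale, where adding 16 compresses differences.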
